A study of Mus musculus with 6 samples.

Results

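Basal keratinocytes of the interfollicular epidermis, the layer between the hair follicles, were picked out of 3 libraries of droplet single-cell RNA sequencing from mouse skin. They were chosen by the UMI counts of 16 genes in each cell, where a UMI is 1 counted RNA molecule. A member carried 500 UMIs or more from 300 genes or more, of which mitochondrial UMIs made up no more than 10%. Krt5 and Krt14, the keratin pair of basal cells, made up at least 0.5% of its UMIs, and Krt1 and Krt10, the pair of the layers above, less than 0.5%. It had at least 2 UMIs of Col17a1, Itga6 and Itgb4 together, which anchor basal cells to the basement membrane. It had at most 1 UMI of the upper follicle keratin Krt79, at most 2 of the follicle keratin Krt17, fewer than 2 of the follicle genes Cd34, Lgr5, Lhx2 and Fgf18, fewer than 2 of the division genes Mki67 and Top2a, and at most 5 of the fibroblast collagen Col1a1. This gave 2625 cells out of 23796 that passed the cell filter.

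The study compared whole skin, freed of hypodermis, from female adult mice of 17 to 18 weeks. One group, called UP_Del, lacks an enhancer upstream of Il2ra, the gene of the IL-2 receptor alpha chain, and had lost hair (alopecia). Another group with the same UP_Del deletion kept its hair (no alopecia), and the third was C57BL/6 wild type. No mouse was treated, the genotype field of every sample reads C57/BL6, and the sources used here do not give the number of mice in a library. Skin was digested with Liberase, DNase and trypsin, and live CD45-negative cells, which leave out leukocytes, were sorted. Each group gave 1 such library, so differences between groups could be neither checked in replicates nor tested. Intervals are 95% and cover counting error alone.

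Basal keratinocytes sit on the basement membrane, held by hemidesmosomes, and divide to renew the layers above them. They sense wounds, hormones and microbes, and answer with immediate early transcription factors, NF-kB and chemokines. In alopecia areata of people and mice, interferon-gamma from T cells acts on follicle epithelium, while the IL-2 receptor alpha chain is a protein of T cells, regulatory ones above all.

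The alopecia library gave 397 members of 4958 kept cells, the no-alopecia library 2073 of 15484 and the wild-type library 155 of 3354. Members held 3771686, 17118846 and 1374758 UMIs in all in the same libraries, with medians per cell of 9254, 8204 and 8526. The no-alopecia library stood apart from the other 2 in quality: 27.4% of alopecia barcodes, 6.18% of no-alopecia barcodes and 22.3% of wild-type barcodes were over the mitochondrial limit. Among members the median mitochondrial share was 2.10% in alopecia, 1.52% in no alopecia and 2.02% in wild type. Between 48 and 149 barcode sequences were shared by pairs of these libraries, and none of them belonged to members of both. Since each group is 1 library, handling, digestion and sequencing of a library cannot be told apart from its group.

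Krt5 was part of the selection, so its level describes the members and is no support for the label. Fibroblasts were taken as cells with over 5 Col1a1 UMIs and less than 0.5% of UMIs from Krt5 and Krt14, so the gap between the classes was set beforehand. Summed over members, Krt5 stood at 9041, 10820 and 8350 counts per 1e+06 UMIs (CPM) in alopecia, no alopecia and wild type, against 27.8, 92.4 and 27.1 CPM in the fibroblasts of the same libraries. Krt15, a basal keratin that the rule did not use, was as abundant, at 9717 CPM in alopecia, 8849 in no alopecia and 8580 in wild type. Trp63, the transcription factor that maintains the basal layer, had 782, 728 and 863 CPM in those libraries. Fibroblast markers (6 genes) summed to 15.1 CPM in alopecia, 31.8 in no alopecia and 4.36 in wild type, and leukocyte markers (10 genes) to 10.3, 3.62 and 5.09 CPM. Other lists stood higher. Suprabasal markers (6 genes) summed to 950, 993 and 844 CPM and upper follicle markers (6 genes) to 271, 173 and 362 CPM. Bulge markers (7 genes) summed to 110, 127 and 159 CPM and glial markers (4 genes) to 96.0, 60.9 and 58.2 CPM. The suprabasal, upper follicle, bulge and fibroblast lists include genes of the rule, so their sums were partly limited by the selection. That members are interfollicular rests on the selection. The 4 Merkel cell markers gave 0, 3 and 0 UMIs. Hemoglobin differed most: 12 UMIs in alopecia members, 2365 in no-alopecia members, of which 1294 lay in 1 cell, and 3 in wild-type members. Members with any hemoglobin UMI were 11 (2.77%), 19 (0.917%) and 3 (1.94%), so their share was lowest in no alopecia. Leaving out members with a hemoglobin UMI moved no count of genes by over 1.5 times.

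The edges of the selection were not empty. With all other criteria met, 28 alopecia, 67 no-alopecia and 15 wild-type members had 0.5 to 0.6% of UMIs from Krt5 and Krt14, while 21, 52 and 15 cells had 0.4 to 0.5% and stayed outside. For Krt17, 41, 261 and 19 members had 2 UMIs, and 30, 184 and 8 cells had 3 and stayed outside. That criterion removed 45.9%, 54.0% and 48.4% of the cells that had reached it, which still included cells with follicle genes. The population is thus the Krt17-poor part of those cells. Cells over the Krt17 limit that met the other criteria had median depths of 11879, 10648 and 10901.5 UMIs, against 9254, 8204 and 8526 in members. The part of depth in this cut was not tested.

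Members made up 8.01% of kept alopecia cells (7.27 to 8.80%), 13.4% of no-alopecia cells (12.9 to 13.9%) and 4.62% of wild-type cells (3.94 to 5.39%). The log2 ratio of alopecia over no alopecia was -0.74 (-0.90 to -0.59). Over wild type it was 0.79 for alopecia (0.52 to 1.07) and 1.53 for no alopecia (1.30 to 1.78), and these ratios share the wild-type library. The denominator mattered. Among keratinocytes alone, members were 26.8% in alopecia (24.5 to 29.1%), 25.6% in no alopecia (24.7 to 26.6%) and 19.9% in wild type (17.1 to 22.9%), so that alopecia and no alopecia differed by a log2 ratio of 0.06 (-0.09 to 0.22). Keratinocytes as a whole numbered 1482 in alopecia, 8095 in no alopecia and 779 in wild type, and so made up the largest share of kept cells in no alopecia. Cells with division genes made up 5.70% of otherwise fitting cells in alopecia (24 of 421), 4.29% in no alopecia (93 of 2166) and 7.19% in wild type (12 of 167), with intervals that overlap.

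**Figure D1:**
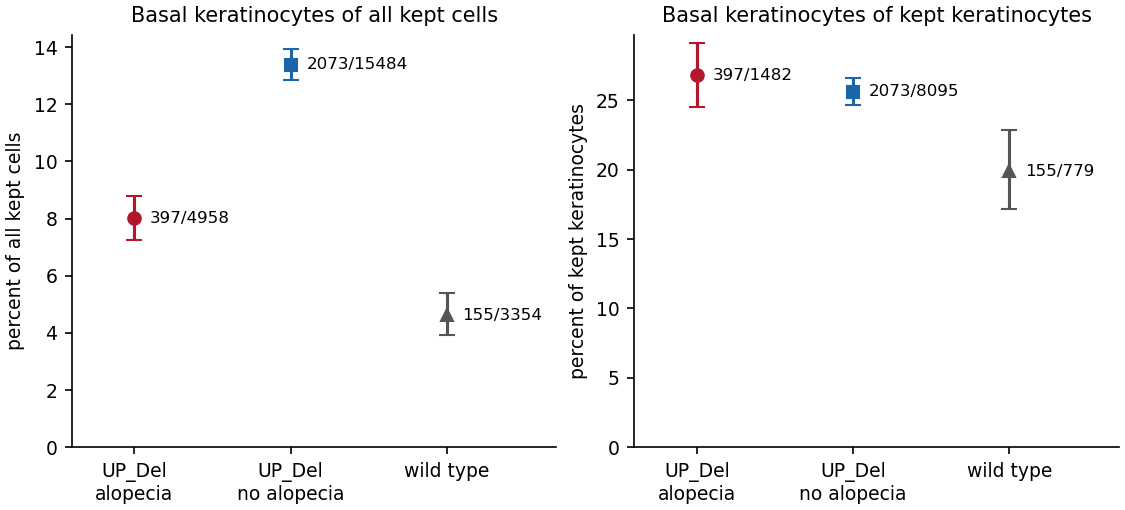
Percent of all kept cells (left) and of keratinocytes (right) that were basal keratinocytes, in UP_Del alopecia, UP_Del no alopecia and wild type; points are 1 library each and bars 95% Clopper-Pearson intervals. No alopecia is highest at 13.4% of kept cells, whereas among keratinocytes alopecia (26.8%) and no alopecia (25.6%) lie together.

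Il2ra itself (chr2:11642807-11693193, plus strand, GRCm38), next to the deleted enhancer, was nearly absent from these cells: 1 UMI in alopecia, 1 in no alopecia and 0 in wild type. Ifng had no UMI in any member. Among cells thinned to 2000 UMIs this was 0 of 392 in alopecia, 0 of 1988 in no alopecia and 0 of 151 in wild type, which by a floor of 3 counts allows shares of cells with a UMI of up to 0.765%, 0.151% and 1.99%. That limits cells with a UMI at this depth, not cells that express the gene. Il15, a cytokine that sustains CD8 T cells, gave 11 UMIs in alopecia, 36 in no alopecia and 6 in wild type. The interferon-induced chemokine Cxcl9 gave 5, 1 and 0 UMIs and its relative Cxcl10 gave 29, 196 and 31, or 7.69, 11.4 and 22.5 CPM. The raw UMIs of Il15 and Cxcl9 are not scaled to the members' totals of 3771686, 17118846 and 1374758 UMIs. Their order need not be that of the levels. At 1 to 3 UMIs nothing can be read from a difference.

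Between alopecia and no alopecia, which share the deletion, large differences on the higher side were in Fkbp5, Defb1, Zbtb16 and Glul, and on the lower side in Ch25h, Sprr1a, Gadd45b and Icam1. Of 12461 genes with 20 or more counts over both libraries, 1144 (9.18%) were at least 1.5-fold higher in alopecia and 1008 (8.09%) at least 1.5-fold lower, 17.3% in all, around a median log2 ratio of 0.01. With trimmed-mean scaling they were 998 and 1162, and at 1000 UMIs per cell 1222 and 1474, so which side is larger depends on the setting. Those are counts past a fold, not tests. Values for 10 genes on the higher side and 12 on the lower are in the plot of levels by library.

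Fkbp5 (chr17:28399094-28517527, minus strand), a co-chaperone of the glucocorticoid receptor and a standard target of it, had 99.96 CPM in alopecia members, 12.6 in no-alopecia members and 128 in wild-type members, a log2 ratio of alopecia over no alopecia of 2.99 (2.74 to 3.23). The no-alopecia library alone was low. At equal depth of 2000 UMIs, 18.9% of alopecia members, 3.02% of no-alopecia members and 20.5% of wild-type members had an Fkbp5 UMI. Fibroblasts held the transcript too, in 29.4%, 10.0% and 24.7% of cells.

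Other genes known to be induced by glucocorticoids were also lowest in no alopecia. Zbtb16, a zinc finger transcription factor, had 497 CPM in alopecia, 161 in no alopecia and 530 in wild type (log2 ratio 1.63, 1.54 to 1.71). Tsc22d3, which encodes the glucocorticoid-induced leucine zipper, had 558, 220 and 504 CPM (1.34, 1.26 to 1.42). Ddit4, a stress inhibitor of mTORC1, had 135, 62.0 and 144 CPM and a log2 ratio of 1.13. The rest of the glucocorticoid list did not follow these 4. Of its 13 members with enough counts, 4 were at least 1.5-fold higher and 1, Cdkn1c at 2, 27 and 0 UMIs, lower, with a median of -0.22. Over all genes 9.18% were higher and 8.09% lower. Sgk1 (69.5, 59.4 and 66.9 CPM), the clock gene Per1 (122, 104 and 125 CPM) and Nr3c1, the receptor itself (81.9, 102 and 96.7 CPM), were within 1.5-fold. Mt1, a metallothionein, stood at 5916, 8223 and 6029 CPM.

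Metabolic and barrier genes completed that side. Glul, glutamine synthetase, had 375 CPM in alopecia, 124 in no alopecia and 345 in wild type. Hpgd, which inactivates prostaglandins, had 71.9, 21.8 and 90.2 CPM. Defb1, a beta-defensin of epithelia, had 131, 36.1 and 148 CPM, against at most 8.91 CPM in fibroblasts. The peptide transporter gene Slc15a2 had 58.3, 18.2 and 66.9 CPM and Adgrl3, an adhesion receptor gene, 69.2, 19.5 and 71.3 CPM. In each of these 5 genes no alopecia was the low library, and alopecia and wild type lay close. Summed over Fkbp5, Tsc22d3, Zbtb16, Glul and Ddit4, a group put together after their values were seen, a member thinned to 2000 UMIs had 3.85 UMIs on average in alopecia, 1.24 in no alopecia and 3.75 in wild type. None of these 5 transcripts was found in 9.69%, 36.8% and 9.27% of members.

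**Figure D2:**
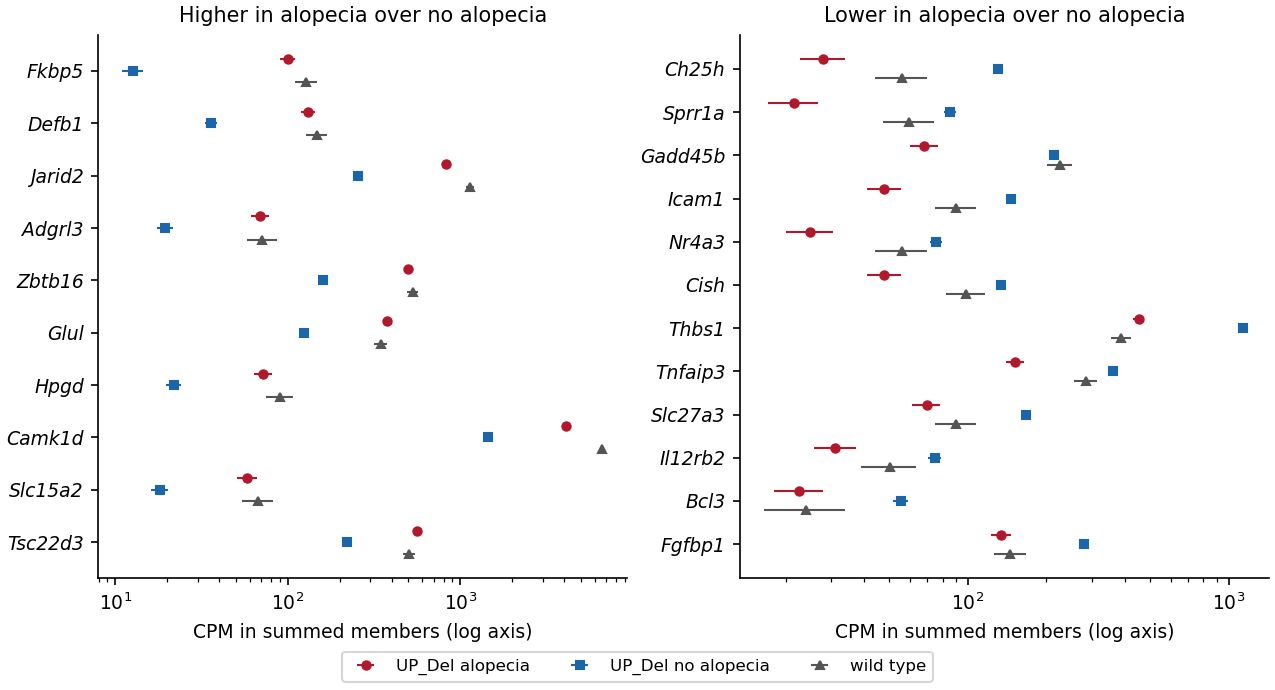
Levels (CPM, log axis) of the 10 genes described as higher (left) and the 12 described as lower (right) in alopecia over no alopecia, for UP_Del alopecia, UP_Del no alopecia and wild type; bars are exact 95% Poisson intervals of 1 library's summed count. In the left panel no alopecia lies lowest for every gene, for example Fkbp5 at 12.6 CPM. Wild type lies above alopecia for every gene there but Glul and Tsc22d3.

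Jarid2 and Camk1d, also higher in alopecia than in no alopecia, were highest in wild type, as were Fkbp5, Zbtb16, Defb1, Hpgd, Slc15a2 and Adgrl3. Camk1d, a calcium-dependent kinase gene, had 4108 CPM in alopecia, 1454 in no alopecia and 6593 in wild type. Jarid2, a partner of the Polycomb complex, had 826, 257 and 1140 CPM. Gm42418, a transcript that overlaps ribosomal RNA and was looked at after these values were seen, ran in the same order, at 36251, 24630 and 46800 CPM. Members with at least 20 Camk1d UMIs of 2000 were 14.03% in alopecia (55 cells), 3.97% in no alopecia (79) and 18.5% in wild type (28). They were shallower, with median depths of 5531, 4485 and 7084 UMIs, against 9711, 8450 and 9001 in the other members. The part of that transcript and of depth in Camk1d and Jarid2 was not tested.

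Among genes lower in alopecia, Ch25h (chr19:34473778-34475164, minus strand), which makes 25-hydroxycholesterol, had the largest ratio of the 12 described here. It had 27.8 CPM in alopecia, 130 in no alopecia and 56.0 in wild type, a log2 ratio of alopecia over no alopecia of -2.23 (-2.52 to -1.94). Icam1 (chr9:21015985-21028817, plus strand), the adhesion molecule that leukocyte integrins bind, had 47.7, 146 and 90.2 CPM (-1.62, -1.84 to -1.40). Unlike Fkbp5, these genes had wild type in between. At 2000 UMIs, 6.12% of alopecia members, 15.8% of no-alopecia members and 6.62% of wild-type members had an Icam1 UMI. The share in fibroblasts was 22.97%, 33.2% and 29.6%.

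Thbs1, the matrix protein thrombospondin-1, was the most abundant named gene on that side, with 452 CPM in alopecia, 1137 in no alopecia and 387 in wild type (-1.33, -1.40 to -1.26). It was found in 20.2%, 46.3% and 18.5% of thinned members, against 8.60%, 6.63% and 7.004% of fibroblasts. Tnfaip3 (chr10:19000910-19015657, minus strand), which encodes A20, an inhibitor of NF-kB, had 152, 360 and 283 CPM (-1.25, -1.37 to -1.12). Gadd45b, a stress-response gene, had 67.9, 214 and 225 CPM, so that alopecia alone was low. Sprr1a, a cornified envelope gene, had 21.5, 85.5 and 59.6 CPM, and 197 of its 1464 UMIs in no alopecia came from 1 cell. Nr4a3, an orphan nuclear receptor gene, had 24.9, 75.5 and 56.0 CPM. Cish, an inhibitor of cytokine signalling that STAT5 induces, had 47.7, 134 and 98.2 CPM. Il12rb2 (31.02, 74.6 and 50.2 CPM), Bcl3 (22.5, 55.2 and 24.0), Slc27a3 (69.5, 167 and 90.2) and Fgfbp1 (134, 279 and 145) filled the list. Wild type lay below no alopecia in 11 of these 12 genes, all but Gadd45b.

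Immediate early genes were lower in alopecia as a list. Of 27 with enough counts, 18 were at least 1.5-fold lower, 0 at least 1.5-fold higher, and the median log2 ratio was -0.65, beside 0.01 over all genes. Of all genes 8.09% were lower and 9.18% higher. Egr1, a zinc finger factor of growth and injury signals, had 952 CPM in alopecia, 1832 in no alopecia and 1413 in wild type. Atf3, a stress factor, had 1450, 2764 and 2374 CPM, and Fos, an AP-1 subunit, 2185, 3676 and 2910 CPM. Zfp36, which degrades cytokine messages, had 1287, 2425 and 1757 CPM. Against wild type the list was lower in alopecia as well, with 10 of 27 members past 1.5-fold and a median of -0.45, and 6 higher and 1 lower in no alopecia with a median of 0.34. These comparisons share the wild-type library. Of all genes 7.20% were lower for alopecia, and 10.9% higher and 14.6% lower for no alopecia. The genes are also known to respond to the enzymatic digestion of tissue, a step that all 3 libraries went through. Its part in the result was not tested.

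Cell by cell, the list split the members. Thinned to 2000 UMIs, a member had a median of 9 immediate early UMIs in alopecia (quartiles 3 and 46.5), 42 in no alopecia (12 and 80) and 10 in wild type (2 and 62.5). At least 20 such UMIs were found in 41.3% of alopecia members, 68.7% of no-alopecia members and 41.7% of wild-type members. Alopecia and wild type were close at the median, and the upper quartile was lower in alopecia.

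**Figure D3:**
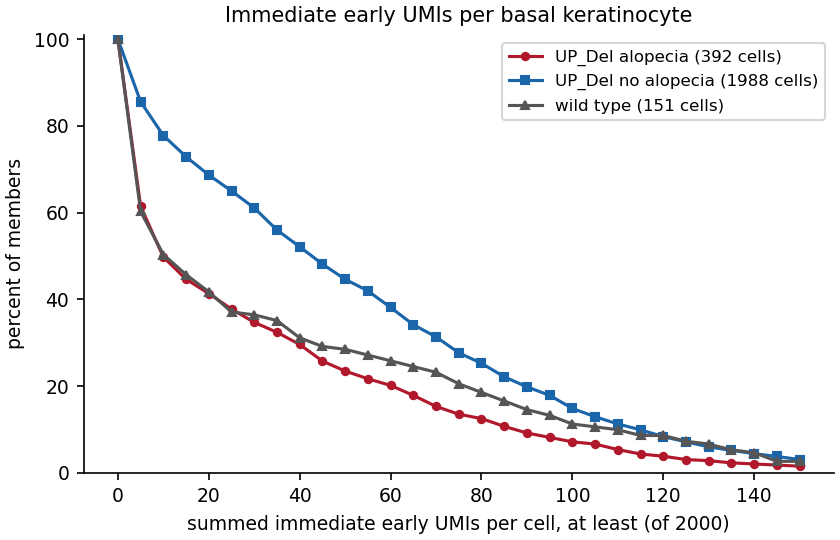
Percent of members (y axis) with at least a given number of immediate early UMIs out of 2000 (x axis), for UP_Del alopecia, UP_Del no alopecia and wild type; each point is a share of cells of 1 library. At 20 UMIs the no-alopecia curve stands at 68.7%, above alopecia at 41.3% and wild type at 41.7%.

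The NF-kB list was lower in alopecia too. Of 17 genes, 11 were at least 1.5-fold lower than in no alopecia and 1, Traf1 at 11, 27 and 4 UMIs, higher, with a median of -0.69. Besides Tnfaip3, Icam1 and Bcl3, these were inhibitors and subunits of the pathway. Nfkbia, the inhibitor that holds NF-kB in the cytoplasm, had 1029 CPM in alopecia, 1685 in no alopecia and 976 in wild type. Relb had 32.1, 62.7 and 37.1 CPM and Nfkb2 32.3, 52.3 and 34.2 CPM. Nfkb1 itself stood at 150, 157 and 145 CPM. Against wild type, 6 of 15 were lower in alopecia (median -0.09), while in no alopecia 7 of 17 were higher and 1 lower (median 0.35). The percentages of all genes past 1.5-fold were 6.68% higher and 7.20% lower for alopecia over wild type, and 10.9% higher and 14.6% lower for no alopecia over wild type. For alopecia over no alopecia they were 9.18% higher and 8.09% lower.

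Promoters of 3 of these genes are given because the members lower together include direct feedback targets of NF-kB. The RefSeq sequences (GRCm38.p6, 250 bases before to 50 after the start, 5′ to 3′ on the gene's strand) are in lower case, with matches to the kappaB consensus of 10 bases, searched on both strands with overlaps allowed, in capitals.
Tnfaip3: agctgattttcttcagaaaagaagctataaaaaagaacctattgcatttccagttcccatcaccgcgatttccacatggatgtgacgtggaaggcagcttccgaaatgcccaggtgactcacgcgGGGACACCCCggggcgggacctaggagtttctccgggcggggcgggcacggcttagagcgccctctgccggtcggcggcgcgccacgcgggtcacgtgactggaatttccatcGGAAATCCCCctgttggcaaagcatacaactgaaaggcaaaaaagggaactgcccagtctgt
Nfkbia: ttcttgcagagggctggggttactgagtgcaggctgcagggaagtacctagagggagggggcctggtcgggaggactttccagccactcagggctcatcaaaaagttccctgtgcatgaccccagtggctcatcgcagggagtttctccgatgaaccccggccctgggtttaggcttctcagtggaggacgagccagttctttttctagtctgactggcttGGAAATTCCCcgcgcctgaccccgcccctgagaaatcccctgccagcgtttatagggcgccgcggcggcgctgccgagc
Bcl3: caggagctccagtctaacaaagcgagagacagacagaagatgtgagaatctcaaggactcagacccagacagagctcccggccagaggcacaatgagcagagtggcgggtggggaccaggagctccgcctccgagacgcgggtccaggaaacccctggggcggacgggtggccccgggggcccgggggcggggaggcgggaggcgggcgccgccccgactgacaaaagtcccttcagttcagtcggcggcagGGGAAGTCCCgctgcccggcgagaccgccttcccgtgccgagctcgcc
They lie at chr10:19015361-19015660, chr12:55492598-55492897 and chr7:19822706-19823005, all on the minus strand. The Tnfaip3 window holds 2 matches, which begin 125 and 12 bases before the start, the Nfkbia window 1 match that begins 29 bases before it, and the Bcl3 window 1 match just after it. A match was present in 7 of the 14 NF-kB list genes with a promoter in the table, in 7 of 22 immediate early genes and in 0 of 11 glucocorticoid list genes. Such a match was found in 5.14% of all 27025 genes with a promoter there. The Icam1 window held no match. A match describes the letters of a window and is not a bound site.

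Chemokines and cytokines of the keratinocyte were lower in alopecia than in no alopecia or within 1.5-fold. Of 22 with enough counts, 12 were at least 1.5-fold lower than in no alopecia and 0 higher, with a median of -0.63. Over all genes 8.09% were lower and 9.18% higher. The most abundant, Cxcl14, a chemokine that epidermis makes at rest, had 874 CPM in alopecia, 1385 in no alopecia and 1180 in wild type. The alarmin Il33 had 60.2, 99.1 and 64.7 CPM. Il6 had 4 UMIs in alopecia, 249 in no alopecia and 0 in wild type, in 4, 61 and 0 cells. Fibroblasts had more Il6, at 87.3, 105 and 120 CPM, in an order that was not that of the members. For Cxcl1, which draws neutrophils, 174 of 458 no-alopecia UMIs came from 1 cell, and 15 and 16 UMIs were counted in alopecia and wild type. Ccl20 gave 0, 58 and 0 UMIs. With each library's 0 set to a floor of 3 counts, alopecia was at least 4.26-fold lower than no alopecia.

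Interferon targets were low, and none with enough counts stood at least 1.5-fold higher in alopecia. Of 13 interferon-gamma response genes, 6 were at least 1.5-fold lower than in no alopecia and 0 higher (median -0.57). Over all genes 8.09% were lower and 9.18% higher. Irf1, the first transcription factor of that response, had 70.0 CPM in alopecia, 143 in no alopecia and 193 in wild type, and its log2 ratio of alopecia over wild type was -1.47 (-1.72 to -1.22). Socs1, the feedback inhibitor, had 9.28, 16.2 and 15.3 CPM. The GTPase gene Gbp2 had 17, 187 and 11 UMIs. The receptor subunit Ifngr1 was present at 365, 306 and 310 CPM. Of 14 type I interferon genes 3 were lower than in no alopecia, all with at most 94 UMIs in a library, and 0 were higher.

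MHC class I, whose display to CD8 T cells interferon-gamma raises, showed no gene of 18 past 1.5-fold between alopecia and no alopecia, with a median of -0.25. Over all genes 17.3% passed it. H2-K1 had 1305, 1645 and 1313 CPM in alopecia, no alopecia and wild type, and B2m, the light chain, 1022, 1227 and 1185 CPM. Against wild type, H2-Q6 (77.4 in alopecia and 130 CPM in wild type) and Tap2 (49.3 and 80.0 CPM) were past 1.5-fold lower. In that comparison 7.20% of all genes were lower. H2-Q6 shares sequence with its neighbours, so its reads may be split among copies. MHC class II genes had at most 197 UMIs in a library. H60c, a ligand of the activating receptor NKG2D on skin T cells, had 29.96, 30.8 and 27.6 CPM.

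**Figure D4:**
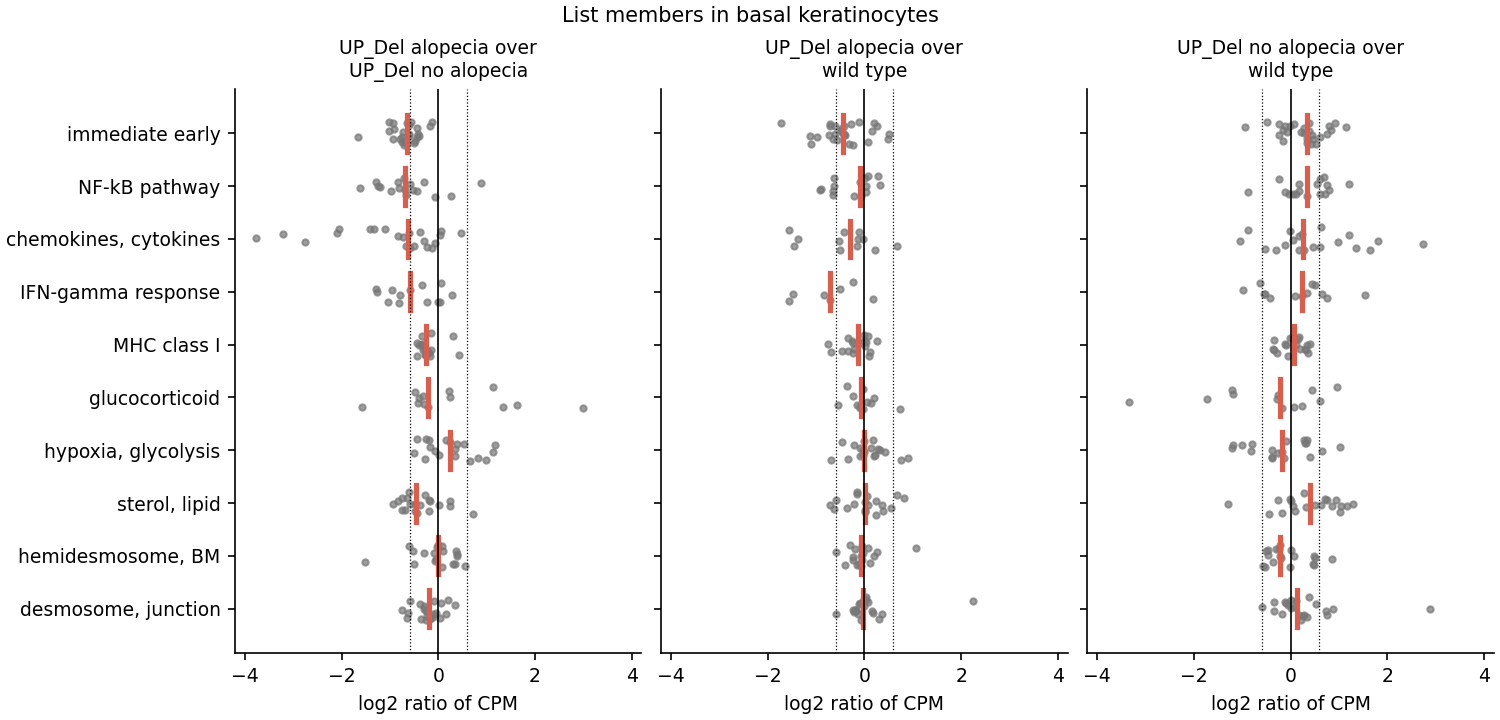
Log2 ratio of CPM of each list member with 20 or more counts (grey points) and the list's median (red bar), for alopecia over no alopecia, alopecia over wild type and no alopecia over wild type; dotted lines mark 1.5-fold. In the left panel the immediate early (-0.65), NF-kB (-0.69) and chemokine (-0.63) medians lie left of 0, while hemidesmosome genes centre on 0.00.

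Structural genes of the layer are set beside all genes, of which 9.18% were at least 1.5-fold higher and 8.09% lower in alopecia than in no alopecia. Of 19 hemidesmosome and basement membrane genes outside the rule, 0 were at least 1.5-fold higher in alopecia than in no alopecia and 2 lower, the collagen Col4a1 (36, 248 and 11 UMIs in alopecia, no alopecia and wild type) and the linker Nid1 (3, 39 and 0), and the median was 0.00. The laminin-332 chains Lama3 (176, 167 and 196 CPM) and Lamb3 (167, 173 and 174 CPM) and the plakin gene Dst (1022, 805 and 1104 CPM) stayed within 1.5-fold. Of 18 integrin and focal adhesion genes 1 was higher and 1 lower, with Itgb6, the wound integrin, at 25.2, 55.2 and 35.6 CPM. Of 22 desmosome and junction genes 0 were higher and 3 lower.

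The levels of Dsp and Cdh1 were close in the 3 libraries. Dsp, the desmosomal plakin desmoplakin, had 1187 CPM in alopecia, 1342 in no alopecia and 1341 in wild type, and Cdh1, E-cadherin, 318, 358 and 319 CPM. The 3 junction genes lower in alopecia were Cldn4, a tight junction claudin (31.02, 48.2 and 6.55 CPM), Gja1, connexin 43 (103, 160 and 111 CPM), and Gjb2, connexin 26 (3, 23 and 1 UMIs). Of 18 epidermal transcription factors, 1 was at least 1.5-fold higher in alopecia and 0 lower. That one, the homeobox gene Barx2, had 132, 77.9 and 143 CPM, while Klf4, which drives barrier differentiation, had 375, 442 and 452 CPM and Gata3 286, 270 and 356 CPM.

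Most genes of the signalling lists were within 1.5-fold, as were most of all genes, of which 17.3% passed it between alopecia and no alopecia. None of 15 Notch pathway genes passed 1.5-fold between alopecia and no alopecia (median -0.04), with the receptor Notch1 at 119, 122 and 156 CPM in alopecia, no alopecia and wild type and its ligand Jag2 at 121, 119 and 136 CPM. Of 17 EGF receptor and ligand genes 2 were higher and 2 lower, and Egfr had 154, 160 and 159 CPM. Of 20 Wnt pathway genes 2 were higher and 3 lower, with the ligand Wnt4 at 145, 177 and 128 CPM. Of 29 interleukin receptor and JAK-STAT genes 2 were higher and 5 lower. Il20ra, a receptor for keratinocyte-activating cytokines, was among the higher, at 211, 126 and 173 CPM. Il4ra, the shared receptor of IL-4 and IL-13, was among the lower, at 18.3, 43.9 and 26.9 CPM. Jak1 had 148, 173 and 178 CPM and Stat3 213, 297 and 270 CPM.

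Most genes of the heat shock, unfolded protein, p53 and oxidative stress lists were within 1.5-fold between alopecia and no alopecia. So were most of all genes, of which 17.3% passed it. Of 14 heat shock genes 0 were at least 1.5-fold higher in alopecia and 1, the cochaperone gene Dnajb1 (336 CPM in alopecia, 506 in no alopecia and 451 in wild type), lower, with a median of 0.01. Of 14 unfolded protein genes 0 were higher and 1 lower, of 15 p53 and senescence genes 2 and 1, of 25 oxidative stress genes 2 and 4, and of 19 cell cycle genes 1 and 1. Among alarmin and wound genes 8 of 19 were lower and 1 higher (median -0.28). The 2 with most counts, the calcium-binding protein gene S100a11 (1811, 2024 and 1560 CPM) and the annexin gene Anxa2 (1937, 1986 and 1578 CPM), were within 1.5-fold between alopecia and no alopecia. The stromelysin gene Mmp3 had 8, 158 and 1 UMIs. The example genes of the junction, transcription factor, signalling and stress lists were picked after their values were seen.

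Between alopecia and wild type, fewer genes passed 1.5-fold. On the lower side Chit1, Lama1, Ly6a and Il1rapl1 were low in both UP_Del libraries. The others named there, Gadd45b, Irf1, Sprr1a and Pyy, had more in no alopecia than in alopecia. Pyy, for example, had 23.6 CPM in alopecia, 47.2 in no alopecia and 77.1 in wild type. Of 10283 genes with enough counts, 687 were higher in alopecia and 740 lower, 13.9% in all, and 866 and 551 with trimmed-mean scaling. Chit1 (chr1:134111242-134151540, plus strand), a chitinase, had 23.1 CPM in alopecia, 21.3 in no alopecia and 199 in wild type, a log2 ratio of alopecia over wild type of -3.11 (-3.48 to -2.76). Lama1 (chr17:67697259-67822647, plus strand), a laminin chain, had 8.75, 8.29 and 55.3 CPM (-2.66, -3.30 to -2.05). Il1rapl1, a synaptic adhesion gene, had 107, 102 and 329 CPM, of which 73 of the wild-type UMIs were in 1 cell.

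Ly6a (chr15:74994877-74998031, minus strand), which encodes the stem cell antigen Sca-1, had 97.0 CPM in alopecia, 108 in no alopecia and 399 in wild type (-2.04, -2.24 to -1.85). It was found in 12.5%, 14.4% and 35.1% of members at 2000 UMIs, against 85.5%, 92.5% and 84.2% of fibroblasts. Ly6a was lower in alopecia than in wild type in suprabasal cells too, with a log2 ratio of -1.16 (-1.39 to -0.93). The ratio was -1.13 (-1.90 to -0.36) in upper follicle cells and -0.04 in fibroblasts. Bulge cells did not have the order of members, with 15.04, 74.2 and 6.55 CPM, from 32 UMIs in alopecia and 6 in wild type. Chit1 was found in 1.53%, 3.82% and 22.5% of members and Lama1 in 1.28%, 1.96% and 9.93%. Fibroblasts had at most 1.00 CPM of Chit1 and 0.249 CPM of Lama1. Suprabasal cells had the same order for Chit1, at 57.5, 51.1 and 211 CPM, and for Lama1, at 10.2, 6.10 and 60.8 CPM. For these 4 genes wild type was the library apart, with 155 members behind it.

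Higher in alopecia than in wild type was Rfx2, a transcription factor known for ciliated cells, at 61.5 CPM in alopecia, 40.9 in no alopecia and 14.6 in wild type (2.08, 1.42 to 2.82). Phlda1, linked to follicle stem cells and growth arrest, had 119, 139 and 46.6 CPM. Serpinb2, a serine protease inhibitor of stressed epithelium, had 1023, 1342 and 594 CPM. Efemp1, Foxq1, Ndrg1 and Errfi1 had log2 ratios from 0.74 to 1.11. At 1000 UMIs per cell members were chosen anew from the thinned counts, which gave 416 in alopecia, 2632 in no alopecia and 175 in wild type. There Foxq1 (-0.83) and Ndrg1 (-0.07) changed sign, and Phlda1 (0.14), Serpinb2 (0.33) and Errfi1 (0.39) were under 1.5-fold. The direction or the fold of these 5 thus depends on that setting, in which both depth and members differ. Foxq1 had 33 wild-type UMIs before thinning. As a mean over cells, Ndrg1 (0.56) and Errfi1 (0.51) were under 1.5-fold too.

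No alopecia against wild type, which shares a library with each comparison above, had 3062 of 12034 genes past 1.5-fold (25.4%), of which 1309 were higher and 1753 lower, against 1748 and 1298 with trimmed-mean scaling. Among its leading genes were again Fkbp5 (log2 ratio -3.34), Chit1 (-3.22) and Lama1 (-2.74) on the lower side and Thbs1 (1.55) on the higher. Krt16, a keratin of wounded epidermis, had 60.5 CPM in alopecia, 100.4 in no alopecia and 30.6 in wild type, but its log2 ratio of no alopecia over wild type was 0.50 at 1000 UMIs per cell, under 1.5-fold. Fosl1, an AP-1 subunit of migrating keratinocytes, had 329, 513 and 233 CPM, and Avpi1 291, 519 and 231 CPM. The calcium channel gene Orai1 had 41.9, 67.6 and 24.0 CPM.

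The named genes, picked by their ratios in members, were also looked up in other cell classes of the same libraries. The share of all genes past 1.5-fold in those classes is not given here, so the counts below have no background beside them. Of the 10 genes described as higher in alopecia than in no alopecia, 10 were also at least 1.5-fold higher in suprabasal cells, 10 in upper follicle cells, 6 in bulge cells and 9 in fibroblasts. Of the 12 lower genes, the counts were 12, 11 and 11 in the keratinocyte classes in that order, and 5 of 10 with enough counts in fibroblasts. Over wild type, the genes described as higher in alopecia were past 1.5-fold the same way in 1 of 7 in suprabasal cells, 2 of 6 in upper follicle cells, 2 of 6 in bulge cells and 0 of 5 in fibroblasts, and the lower ones in 6 of 8, 5 of 7, 4 of 6 and 1 of 5. The immediate early median of alopecia over no alopecia was -0.87 in suprabasal, -1.15 in upper follicle and -0.82 in bulge cells, and -0.37 in fibroblasts, beside -0.65 in the basal cells. In the bulge, Defb1 and Hpgd were at least 1.5-fold lower in alopecia, and Tsc22d3 (-0.28) and Sprr1a (0.56) lay on the other side of 0 by less than 1.5-fold.

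**Figure D5:**
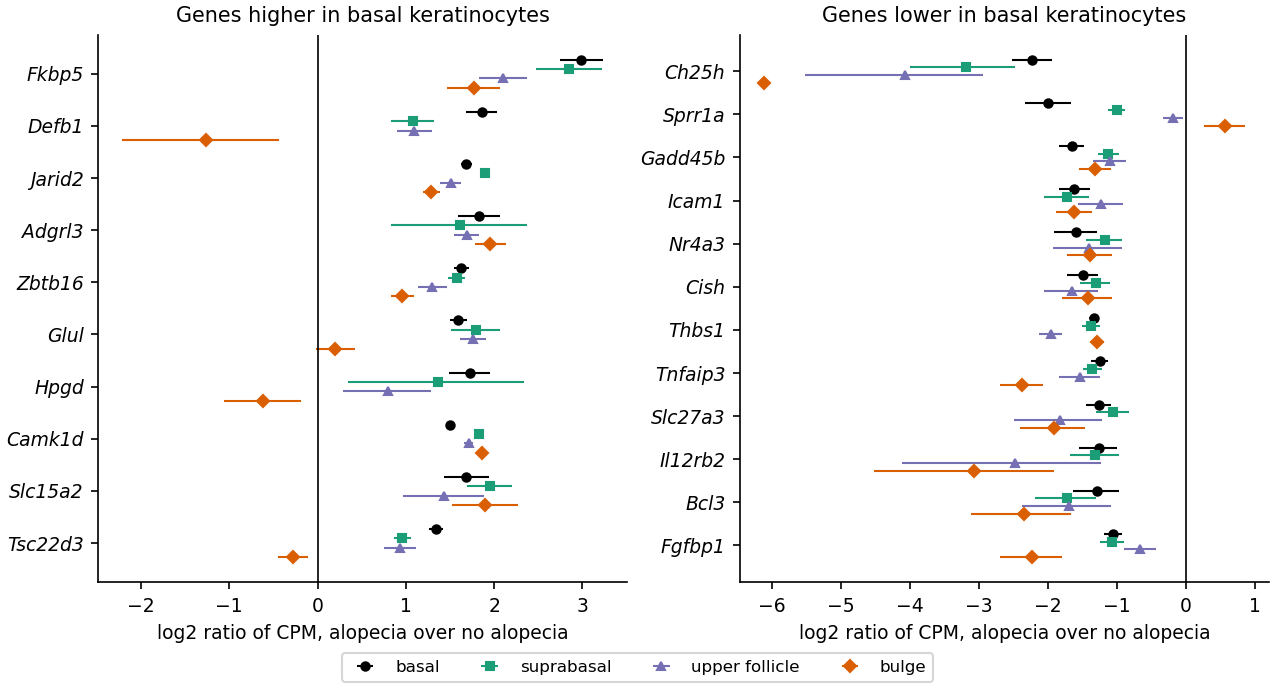
Log2 ratio of CPM, alopecia over no alopecia, of the 10 genes higher (left) and the 12 lower (right) in basal keratinocytes, shown for basal, suprabasal, upper follicle and bulge cells with 95% counting intervals. The classes mostly lie on the same side of 0, apart from Defb1 (-1.26), Hpgd (-0.62), Tsc22d3 (-0.28) and Sprr1a (0.56) in the bulge; where a bulge count is 0 the point is a bound from a floor of 3 counts.

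Members of 1 library also differed among themselves. Over 1072 genes with enough UMIs, the median excess squared coefficient of variation at 2000 UMIs was 0.217 in alopecia, 0.196 in no alopecia and 0.236 in wild type. The 15 genes ranked first by the lowest of their 3 library values included the immediate early genes Klf2, Ier3 and Fosl1, the chaperone gene Hspa1a, the matrix genes Thbs1 and Ccn1, the glycerol channel gene Aqp3 and, as above, Jarid2 and Camk1d. At 3000 UMIs 5 of the 15 were found again. Some low genes rested on 1 cell: the simple-epithelium keratins Krt8, Krt18 and Krt19 had 20, 34 and 36 UMIs in alopecia members, all in 1 cell, and Lcn2, an antimicrobial carrier of iron chelators, had 40 of its 53 alopecia UMIs in 1 cell.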

How the data were processed

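The 3 CD45-negative libraries of the 10x Genomics 5' HT v2 kit were used, 1 for each group as given by the sample titles, and the CD45-positive libraries were not used here. The authors deposited raw UMI counts per gene and cell barcode from Cell Ranger 7.1.0 with build mm10, per the submitters' processing notes, over 32285 genes. The sources used here do not name the annotation release, and 32235 gene IDs (99.8%) matched GENCODE vM21, from which coordinates were taken.

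Members were chosen in each cell by the criteria in the report, without doublet removal. Raw UMIs of members were summed per library and scaled to 1e+06 (CPM). Ratios carry exact conditional binomial intervals, levels exact Poisson and shares Clopper-Pearson intervals, all 95%. They cover counting error alone, as cells do not stand in for replicate libraries. Where a library had 0 counts, 3 counts per library served as floor, and a share of 0 carries the limit of 3 counts in place of an interval. A gene counted as higher or lower at 1.5-fold, with at least 20 counts over both libraries. The interval computation was tested on simulated data. For shares of cells with a UMI and for variation, each cell was thinned to 2000 UMIs, which dropped shallower cells and kept 392 of alopecia, 1988 of no alopecia and 151 of wild type.

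Named genes had at least 50 counts and 50 CPM in the higher library and were put in order of the bound of their interval closest to no change, 12 each way for alopecia over no alopecia and 8 for the others. Mitochondrial, ribosomal-protein, hemoglobin, sex-linked marker, unnamed and selection genes were left out, as were genes with less than 10% of the CPM that another class had. Il2ra, Ifng, Il15, Cxcl9 and Cxcl10 were always examined. The members, the 34 gene lists and the 15 marker lists were chosen with earlier results of these data known. Lists can share genes. Some named genes and list members are not reported here.

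Alternatives were other cell and marker limits, doublets removed, other scalings, a mean over cells, thinning to 1000 UMIs and other count and fold limits. Thinning to 1000 UMIs came before the selection, so members were chosen anew in that setting. Python 3.11.15, numpy 2.4.6, scipy 1.17.1, pandas 2.3.3, scanpy 1.11.5 and matplotlib 3.10.9 were used.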

Additional observations from a re-analysis of the deposited data

Results flagged for a closer look

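In 2 genes the difference between alopecia and no alopecia ran the opposite way in bulge cells of the follicle and in interfollicular basal keratinocytes. Defb1, the epithelial beta-defensin gene, had a log2 ratio of alopecia over no alopecia of -1.26 (-2.21 to -0.43) in the bulge, from 13 UMIs in alopecia and 124 in no alopecia, against 1.86 in basal cells. Hpgd, the gene of the prostaglandin-inactivating dehydrogenase, had -0.62 (-1.06 to -0.19) in the bulge, from 53 and 323 UMIs, against 1.72 in basal cells. The difference between the cell types was not tested, since each group has 1 library.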

How the results depend on the processing

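No paired analysis was possible because each group has 1 library. Of 24 recomputed log2 ratios of member shares, 16 moved by less than their counting interval. With the denominator limited to keratinocytes, an alternative chosen after seeing the data, the share of alopecia over no alopecia reversed to 0.065, and the ratios over wild type were 0.43 for alopecia and 0.36 for no alopecia. Alopecia over no alopecia was -1.14 without the cell filter, -0.95 with Krt5 and Krt14 at 1% or more and -1.04 after thinning to 1000 UMIs, and no alopecia over wild type was 1.85 and 1.88 under the first 2. For those settings the cause was not tested.

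Counts of genes past the fold moved with the limits that define them, by their own construction. For alopecia over no alopecia they were 463 higher and 469 lower at 100 counts, 352 and 412 at 2-fold, and 2090 higher with no minimum. For alopecia over wild type they were 163 higher and 187 lower at 100 counts, 232 and 169 at 2-fold, and 1290 and 1299 with no minimum. For no alopecia over wild type they were 738 higher and 965 lower at 100 counts, 533 and 626 at 2-fold, and 2747 lower with no minimum. Trimmed-mean scaling turned the split of higher and lower genes in all 3 comparisons, to 998 and 1162 for alopecia over no alopecia, 866 and 551 for alopecia over wild type and 1748 and 1298 for no alopecia over wild type. It moved the median of all genes to -0.04, 0.04 and 0.08. At 1000 UMIs per cell the split of alopecia over no alopecia was 1222 and 1474.

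Of 672 recomputed ratios of named genes, 584 moved by less than their interval, 86 moved by more and 2 reversed, Foxq1 (-0.83) and Ndrg1 (-0.071) of alopecia over wild type at 1000 UMIs. Krt16 of no alopecia over wild type was 0.50 there. Leaving out hemoglobin-holding members, or the cell with most UMIs of a gene, was also chosen after seeing the data and brought no named gene under 1.5-fold. Of 1324 list medians, 13 moved. The immediate early median of alopecia over no alopecia was then -0.86, and the chemokine median of alopecia over wild type 0.61. The most variable genes were found again in 5 of 15 at 3000 UMIs. Wild type, with 155 members, limits precision.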

Other observations

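Hypoxia and glycolysis genes were higher in alopecia than in no alopecia in 5 of 19 and lower in 0, with a median log2 ratio of 0.25. Over all genes 9.18% were higher and 8.09% lower. Egln3, an oxygen sensor of the HIF pathway, had 56.2 CPM in alopecia, 24.9 in no alopecia and 56.7 in wild type. Gapdh, the glycolytic enzyme, had 570, 287 and 498 CPM, and Eno1, enolase, 158, 90.0 and 159 CPM. Bnip3, a mitophagy receptor gene, had 95.2, 59.99 and 78.6 CPM, while Slc2a1, the glucose transporter, had 128, 126 and 102 CPM and Vegfa 13.5, 18.2 and 21.8 CPM. Gapdh and Eno1 have many processed copies in the genome, so their counts may be split among copies.

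Sterol and lipid synthesis genes were lower in alopecia than in no alopecia in 8 of 20 and higher in 1, with a median of -0.46. Over all genes 8.09% were lower and 9.18% higher. Fdft1, squalene synthase, had 30.8 CPM in alopecia, 55.0 in no alopecia and 35.6 in wild type, and Fdps, which makes farnesyl diphosphate, 28.6, 44.9 and 21.8 CPM. The sterol sensor partner Insig1 had 7.69, 14.7 and 6.55 CPM. Hmgcs1, an early enzyme of sterol synthesis, stood at 195, 193 and 185 CPM. Against wild type the list had 2 higher and 2 lower of 19 in alopecia (median 0.02), and 9 higher and 1 lower of 20 in no alopecia (median 0.41). The shares of all genes were 6.68% higher and 7.20% lower for alopecia, and 10.9% higher and 14.6% lower for no alopecia.

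The late differentiation gene Tgm3, a cornified envelope transglutaminase, had 40.3 CPM in alopecia members, 3.56 in no-alopecia members and 18.2 in wild-type members, and was found in 62, 39 and 12 cells. Stfa3, a stefin protease inhibitor gene, had 31.8, 2.51 and 20.4 CPM, with 38 of 120 alopecia UMIs in 1 cell. Sostdc1, a Wnt and BMP antagonist, had 253, 143 and 202 CPM. Id1 and Id3, targets of BMP signalling, had 69.2 and 191 CPM in alopecia, 87.2 and 319 in no alopecia and 142 and 338 in wild type, and the ligand gene Bmp2 had 23.9, 36.7 and 63.3 CPM. The fibroblast growth factor receptor gene Fgfr2 had 697, 437 and 916 CPM. These genes were picked after their values were seen.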
